A study of Mus musculus with 8 samples.

Results

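The secreted hepatokines are proteins that the liver releases into blood and that have been linked to obesity and insulin resistance. They were defined by name as 9 genes, Fgf21, Angptl4, Angptl6, Ahsg, Fetub, Lect2, Selenop (named Sepp1 in the files), Inhbe and Shbg, of 17050 genes tested. The arrays carried 11 probes for them, Fgf21 and Angptl6 having 2 each, and each gene was read from its brightest probe with the other as a check. Liver RNA came from 4 groups with 2 arrays each: KKAy mice at 4 and at 11 weeks of age, and C57BL/6J mice at 4 and at 11 weeks. KKAy mice combine the KK background with the agouti yellow allele and become obese and diabetic, and the labels give their state as diabetes. C57BL/6J is a standard inbred strain whose state the labels give as normal. The allele and the KK background differ from C57BL/6J together and cannot be told apart here. All mice ate standard chow and were fasted for 13.5 hours, and no source used here gives their sex. The labels do not state whether the arrays of a group stem from different mice. The p-values therefore reflect the spread between arrays, which may be technical.

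Hepatokines act on distant tissues much as hormones do. FGF21 is a hormone of the fasted and nutrient-stressed liver that signals through FGF receptors together with the co-receptor beta-Klotho (Klb), and its gene is a known target of PPAR alpha and of the stress-induced factor ATF4. ANGPTL4 inhibits lipoprotein lipase (Lpl), the fetuins AHSG and FETUB belong to the cystatin superfamily, SELENOP carries selenium to tissues, LECT2 binds the receptor MET, INHBE is the subunit of activin E, and SHBG carries sex steroids in plasma. In rodents the liver is known to transcribe Shbg before birth and to have little or none of it in adulthood.

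Promoter sequences are shown for the members with the widest strain differences described below, so that their windows can be compared for shared motifs. Inhbe, among them, was not called between the strains at either age in the main fit. Each sequence is the 250 bases before the start of the gene, written 5′ to 3′ on the minus strand, from RefSeq on GRCm38.p6. The regions are chr7:45615491-45615740 for Fgf21, chr10:127351849-127352098 for Inhbe, chr13:56548539-56548788 for Lect2 and chr11:69617906-69618155 for Shbg. Capitals mark matches, on either strand, to TGATGNAA (a composite element bound by ATF4 with C/EBP), TATAAA (the TATA box), CACGTG (the E-box) or GTTAAT (part of the HNF1 motif). No marked match overlaps another.
Fgf21: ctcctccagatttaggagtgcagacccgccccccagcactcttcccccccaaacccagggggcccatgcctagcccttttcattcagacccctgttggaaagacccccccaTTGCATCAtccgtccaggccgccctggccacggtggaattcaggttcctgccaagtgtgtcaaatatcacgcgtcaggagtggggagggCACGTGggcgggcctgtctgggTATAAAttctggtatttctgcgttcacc
Inhbe: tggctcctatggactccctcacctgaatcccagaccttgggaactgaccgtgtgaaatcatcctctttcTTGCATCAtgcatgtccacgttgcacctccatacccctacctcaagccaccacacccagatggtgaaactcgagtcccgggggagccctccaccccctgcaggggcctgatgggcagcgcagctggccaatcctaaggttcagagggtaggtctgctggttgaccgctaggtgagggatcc
Lect2: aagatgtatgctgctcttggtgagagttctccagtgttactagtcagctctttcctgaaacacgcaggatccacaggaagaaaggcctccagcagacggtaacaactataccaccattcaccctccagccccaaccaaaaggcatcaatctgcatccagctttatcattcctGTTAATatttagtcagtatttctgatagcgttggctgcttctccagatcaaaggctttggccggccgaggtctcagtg
Shbg: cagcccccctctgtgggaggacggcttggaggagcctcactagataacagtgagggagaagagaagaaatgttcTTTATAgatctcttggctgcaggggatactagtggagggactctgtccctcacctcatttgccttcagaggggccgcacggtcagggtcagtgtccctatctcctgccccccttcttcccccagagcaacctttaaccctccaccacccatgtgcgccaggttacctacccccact

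The Fgf21 and Inhbe windows both held TTGCATCA, the reverse complement of the ATF4 and C/EBP motif, at -139 to -132 and at -181 to -174 from the start. A match to TGATGNAA occurred in 3.45% of 32851 promoters searched over the same length. In the Fgf21 window an E-box lay at -50 to -45 and a TATA box at -28 to -23, motifs found in 6.02% and 12.4% of promoters. Lect2 had GTTAAT at -78 to -73 (6.43% of promoters), and the TATAAA match of Shbg, at -176 to -171, was far from the usual place of a TATA box. AGGTCA, the core of nuclear receptor elements, occurred in 14.0% of promoters and in no window of the 8 members in the table. These matches describe letters in the windows and were not tested as sites.

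Levels below are log2 relative signal, the log2 processed signal of a probe minus the 75th percentile of its array, and differences are on that log2 scale. The 75th percentile lay between 476 and 1192 fluorescence units, and the share of probes well above background ran from 56.3% to 66.7%. Slide 1 held the 4-week arrays and slide 2 the 11-week arrays, with KKAy at positions 3 and 4 and C57BL/6J at positions 1 and 2 of each, which means that age cannot be told apart from slide, nor strain from position. Hepatocyte markers were well above background on all arrays for all 7 genes measured of 8. Their summed relative level was 1259 to 1487 in KKAy and 1188 to 1598 in C57BL/6J at 4 weeks, and 1396 to 1560 in KKAy and 1699 to 1719 in C57BL/6J at 11 weeks. Kupffer cell markers moved with strain: 5 of 6 were lower in KKAy at 4 weeks and 4 of 6 at 11 weeks, with summed levels of 52.5 to 59.9 in KKAy and 136.6 to 163.8 in C57BL/6J at 4 weeks, and of 31.1 to 32.8 in KKAy and 55.7 to 60.9 in C57BL/6J at 11 weeks. Stellate cell markers were lower in KKAy for 1 of 5 at 4 weeks and 3 of 5 at 11 weeks, with summed levels of 21.7 to 27.7 in KKAy and 41.5 to 45.7 in C57BL/6J at 11 weeks. Endothelial markers summed to 49.5 to 51.3 in KKAy and 34.6 to 34.9 in C57BL/6J at 4 weeks, and to 37.2 to 37.6 in KKAy and 29.0 to 30.2 in C57BL/6J at 11 weeks, with 1 of 5 higher at 4 weeks and 1 higher and 1 lower at 11 weeks. Lymphocyte markers were lower for 2 of 4 and biliary markers for 1 of 4 at each age. Over all genes 6.41% passed the same test as higher and 9.0% as lower at 4 weeks, and 9.95% and 11.5% at 11 weeks. The part of these cell types in the results below was not tested. In whole liver, fewer cells of a type and less RNA per cell cannot be told apart.

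KKAy livers had more Fgf21 and Shbg transcript than C57BL/6J livers at 4 weeks, and more Lect2 at 11 weeks. At 4 weeks 2 of the 9 genes passed the test and both were higher in KKAy, where 15.4% of all genes passed (6.41% higher and 9.0% lower). At 11 weeks 1 of 9 passed, also higher in KKAy, against 21.5% of all genes (9.95% higher and 11.5% lower). These counts are near the shares of all genes and show nothing particular to the 9 genes. The Shbg probe passed the filter for signal above background only through the KKAy 4-week group. Calls rest on limma's adjusted p under 0.05 with Benjamini-Hochberg adjustment over all genes tested. The median difference of the members was 0.20 at 4 weeks and 0.20 at 11 weeks, beside medians over all genes of 0.015 and -0.00067. KKAy arrays lay entirely above C57BL/6J arrays for 4 members at 4 weeks and entirely below for 1, when 23.1% and 25.4% of all genes did so, and for 3 and 1 members at 11 weeks, when 28.2% and 29.0% did. Of the calls among all genes, 1092 were higher and 1534 lower at 4 weeks, and 1697 were higher and 1963 lower at 11 weeks. Scaling by spike-in control spots in place of the 75th percentile raised the median of all genes by 0.35 and 0.14, and gave 2341 higher and 747 lower, and 1805 higher and 1170 lower. With 1 array left out, 1317 to 2587 genes were called at 4 weeks and 1474 to 3071 at 11 weeks.

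**Figure D1:**
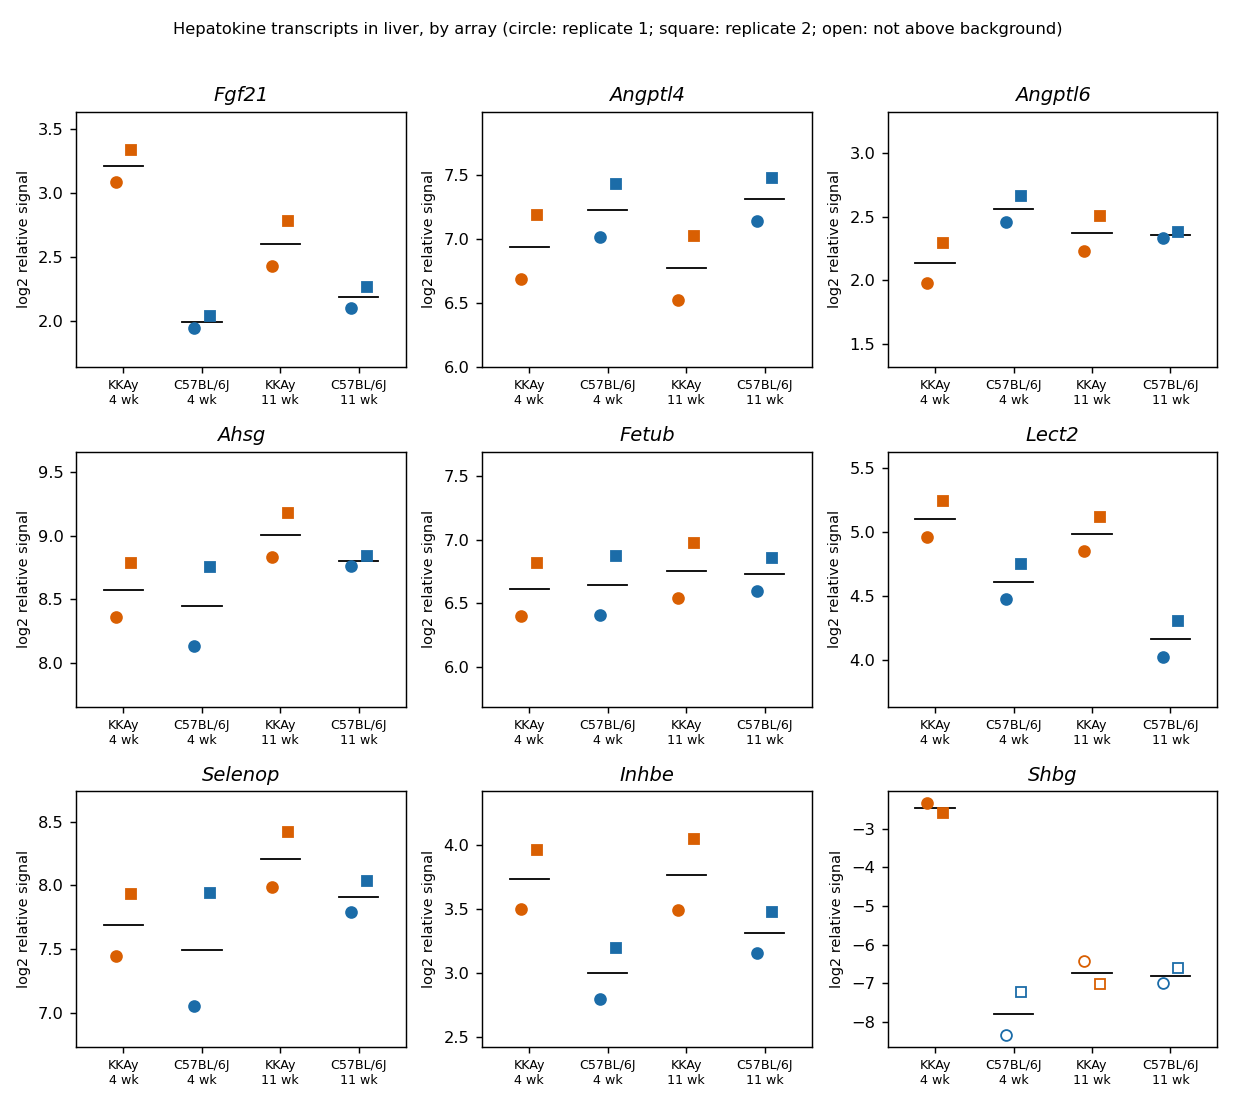
Log2 relative signal of the 9 hepatokine genes (brightest probe) on each of the 8 arrays, KKAy in orange and C57BL/6J in blue at each age. Circles are replicate 1, squares replicate 2, black bars group means and open symbols values not well above background. Fgf21 was highest on the KKAy 4-week arrays, and Shbg was above background on those arrays only.

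The 2 arrays of a group differed in a shared way. For 8 of the 9 members replicate 2 read higher than replicate 1 in all 4 groups, by 0.05 to 0.88, and the 75th percentile was lower on replicate 2 in every group. Before scaling, processed signal was lower on replicate 2 for all 8 in KKAy at 4 weeks (for Ahsg, 268082 against 289197). In the other groups it was lower for some of them and higher for others. A higher reading after scaling thus need not mean more transcript. The second probes of Fgf21 and Angptl6 went the other way, with replicate 1 higher in all 4 groups, so this offset differed between probes of 1 gene. Its cause was not tested. Same-numbered arrays deviated together over all genes (described with the processing), so each difference was also fitted with the replicate number as a block. The labels do not say what same-numbered arrays share, and the block follows a correlation seen in these same data. It narrowed standard errors, for Lect2 at 11 weeks from 0.18 to 0.043. Blocked p-values therefore show dependence on the model and are no separate support. With that block 6 of 9 members passed at 4 weeks, 4 higher and 2 lower in KKAy, when 43.8% of all genes did (21.4% higher and 22.4% lower). At 11 weeks 4 of 9 passed, 3 higher and 1 lower, when 54.9% of all genes did (27.4% higher and 27.6% lower). For the members and the list genes named below, the blocked value is given wherever it changes the call of a printed difference.

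**Figure D2:**
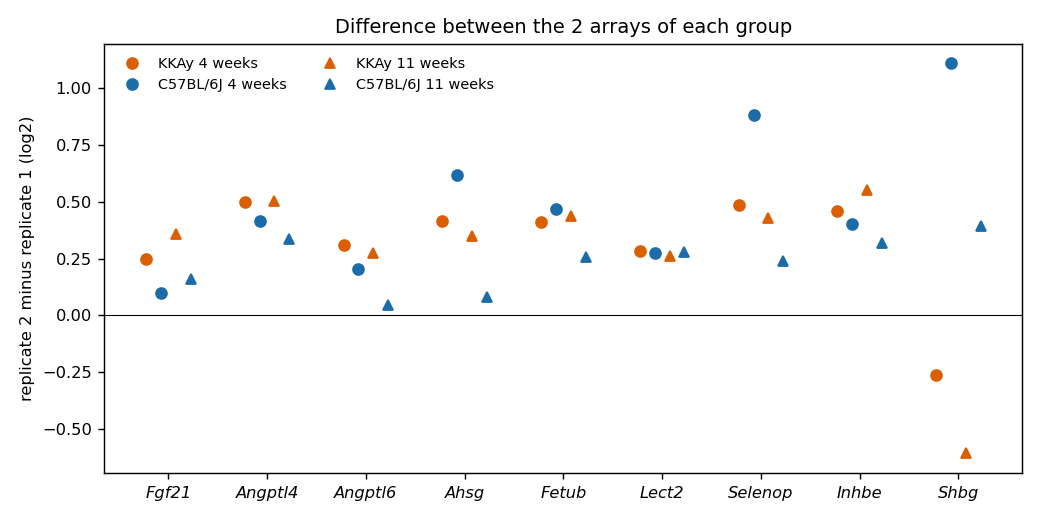
Difference between replicate 2 and replicate 1 of each group (log2) for each member, with circles for 4 weeks and triangles for 11 weeks, KKAy in orange and C57BL/6J in blue. All points lie above 0 except the 2 KKAy points of Shbg, a gene below background on 6 of the 8 arrays.

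Fgf21, the endocrine growth factor, was read by a brightest probe on chromosome 7 at 45481977 to 45482036 (mm8, minus strand). At 4 weeks its level was 3.09 and 3.34 on the KKAy arrays, against 1.94 and 2.04 on the C57BL/6J arrays. At 11 weeks it was 2.43 and 2.78 in KKAy, against 2.10 and 2.26 in C57BL/6J. KKAy arrays exceeded C57BL/6J arrays at both ages without overlap, by a wide margin at 4 weeks and a narrow one at 11 weeks. The difference was 1.22 at 4 weeks (SE 0.16, limma adjusted p = 0.00555), a 2.34-fold rise with a 95% interval of 1.77 to 3.09. At 11 weeks the difference of 0.42 (SE 0.16) did not pass (adjusted p = 0.13, and 0.00848 with the replicate block). The second probe, which spans 45482352 to 45482966, read 2.14 and 1.91 in KKAy against 1.08 and 0.83 in C57BL/6J at 4 weeks, a difference of 1.07 (adjusted p = 0.0104). At 11 weeks the second probe read 1.53 and 1.18 in KKAy against 1.18 and 1.09 in C57BL/6J, a difference of 0.22 (adjusted p = 0.431). Both probes gave the same order of group means, with KKAy at 4 weeks on top, KKAy at 11 weeks next and the C57BL/6J groups below.

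Within KKAy, Fgf21 was lower at 11 weeks than at 4 weeks by a difference of -0.61 (SE 0.16) that missed the threshold (adjusted p = 0.0527). It passed with quantile normalization (-0.69, adjusted p = 0.00926), on the second probe (-0.67, adjusted p = 0.0451) and with the replicate block (adjusted p = 0.00288). With 1 array left out the difference ran from -0.79 to -0.43. In C57BL/6J the 2 ages differed by 0.19 (adjusted p = 0.62). The change of the strain difference with age, -0.80 (SE 0.23), did not pass (adjusted p = 0.141, and 0.00798 with the block and 0.0389 with quantile normalization).

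The genes whose levels followed Fgf21 most closely over the 8 arrays, among 12432 named genes above background on all arrays, were Hus1, a DNA damage checkpoint gene (Pearson r = 0.993), Aqp11, an intracellular aquaporin gene (0.991), and Ptprj, a receptor tyrosine phosphatase gene (0.988). The arrays fall in 4 groups, so these values describe a shared order of groups. Aqp11 was 4.65 and 4.88 in KKAy and 2.77 and 2.96 in C57BL/6J at 4 weeks.

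Shbg, the plasma carrier of sex steroids, had the widest strain difference of the members. Its single probe (chromosome 11, 69431228 to 69431287, mm8, minus strand) was well above background only on the KKAy 4-week arrays, at -2.34 and -2.60. On the 4-week C57BL/6J arrays it was -8.34 and -7.24, on the 11-week KKAy arrays -6.43 and -7.03 and on the 11-week C57BL/6J arrays -7.00 and -6.61, all not well above background. The fitted difference between strains at 4 weeks was 5.32 (limma adjusted p = 0.000805), and that between 11 and 4 weeks in KKAy was -4.26 (adjusted p = 0.00203). Both rest on values below background in the dim group. The KKAy mean at 4 weeks was 10.2-fold the detection level of the 4-week C57BL/6J arrays (3.35 on the log2 scale). It was 6.35-fold that of the 11-week KKAy arrays (2.67 on the log2 scale). The probe passed the filter for signal above background only through the KKAy 4-week group, so these p-values are no independent support. The detection level was, per array, the lowest signal called well above background or the probe's own value where that was higher. The folds against it leave out the spread between arrays and are no strict minimum. With normexp background correction, which adds an offset to all signals, the differences were 1.68 and -1.16 and stayed past the threshold. No fold is given between the strains at 11 weeks, when both were below background.

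**Figure D3:**
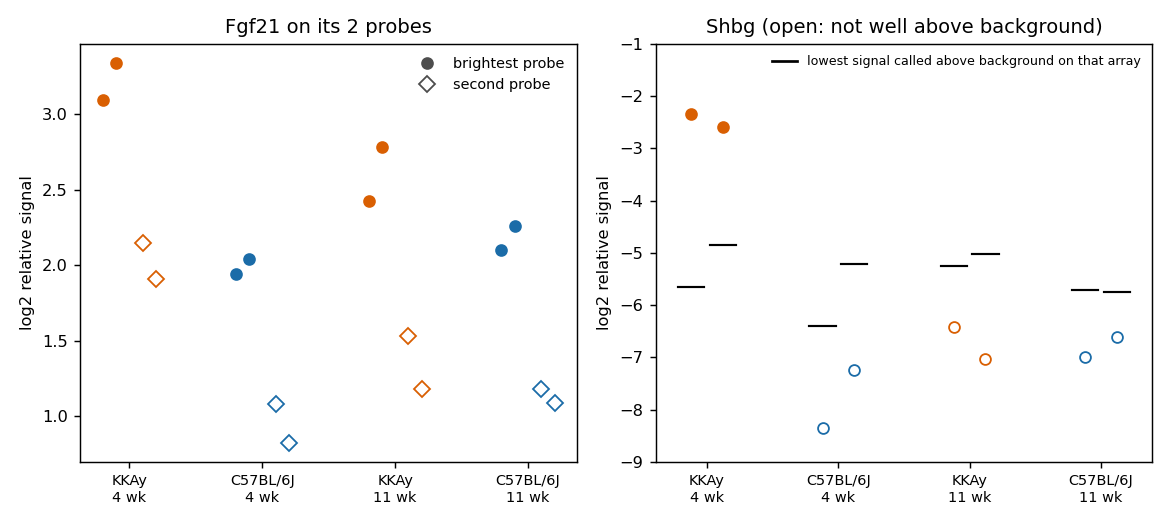
Log2 relative signal of Fgf21 on its brightest and second probe (left) and of Shbg (right) on each array, KKAy in orange and C57BL/6J in blue. Black lines mark the lowest signal called well above background on each array: the KKAy 4-week arrays lie above them for Shbg, and the other 6 arrays lie below.

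The genes next to Shbg in the annotation were also read. Atp1b2, a sodium pump subunit gene, differed by 0.36 (adjusted p = 0.277) and Sat2, a polyamine acetyltransferase family gene, by -0.23 (adjusted p = 0.716) at 4 weeks, neither past the threshold. Fxr2, the gene beyond Sat2, differed by -0.52 (adjusted p = 0.0233). Levels closest to those of Shbg over the arrays were found for Dclre1a, a DNA crosslink repair gene (r = 0.990), Gp9, a platelet glycoprotein gene (0.980), and Acox2, a peroxisomal bile acid oxidase gene (0.980). Since 6 of the 8 Shbg values lie below background, these r values rest on the contrast of the KKAy 4-week arrays with the rest.

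Lect2, a chemotactic protein and ligand of MET, was higher in KKAy at 11 weeks. At that age its level was 4.85 and 5.12 in KKAy, against 4.02 and 4.30 in C57BL/6J (probe at chromosome 13, 56552211 to 56552270, mm8). At 4 weeks it was 4.96 and 5.24 in KKAy, against 4.47 and 4.75 in C57BL/6J. No KKAy array overlapped a C57BL/6J array of the same age. The 11-week difference was 0.83 (SE 0.18, adjusted p = 0.0258), a 1.77-fold rise with an interval of 1.30 to 2.42. It missed the threshold without C57BL/6J 11-week replicate 1 (0.69, adjusted p = 0.155), without C57BL/6J 11-week replicate 2 (0.97, adjusted p = 0.0688), without KKAy 11-week replicate 2 (0.70, adjusted p = 0.111), with the arrays of the slide alone (adjusted p = 0.0606) and with no filter on dim probes (adjusted p = 0.0762). At 4 weeks the difference of 0.49 (SE 0.18) did not pass (adjusted p = 0.149), but did with the block (0.00122), with quantile normalization (0.0285) and with spike-in scaling (0.84, 0.0258). In C57BL/6J the level at 11 weeks was below that at 4 weeks by a difference of -0.45 (adjusted p = 0.239, and 0.00252 with the block).

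Inhbe, the activin E subunit, read 3.50 and 3.96 in KKAy against 2.80 and 3.20 in C57BL/6J at 4 weeks (probe at chromosome 10, 126752612 to 126752671, mm8). At 11 weeks it read 3.49 and 4.05 in KKAy against 3.15 and 3.47 in C57BL/6J. Its KKAy arrays lay above the C57BL/6J arrays at both ages, but the gap was within the distance between the 2 arrays of a group. The differences were 0.74 (SE 0.27, adjusted p = 0.146) and 0.46 (SE 0.27, adjusted p = 0.306), and both passed with the block (0.00149 and 0.00498). The 4-week difference also passed with quantile normalization (0.71, adjusted p = 0.0488) and spike-in scaling (1.09, adjusted p = 0.0225). Inhbc, its neighbour in the annotation and the activin C subunit gene, differed by 0.07 at 4 weeks (adjusted p = 0.853) and was higher in KKAy by 0.81 at 11 weeks (SE 0.16, adjusted p = 0.0165, and 0.0694 with quantile normalization).

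Angptl4, the lipoprotein lipase inhibitor, read 6.69 and 7.19 in KKAy against 7.02 and 7.43 in C57BL/6J at 4 weeks (probe at chromosome 17, 33381815 to 33381874, mm8). At 11 weeks it read 6.52 and 7.02 in KKAy against 7.14 and 7.48 in C57BL/6J, and only at this age did the groups not overlap. The differences were -0.29 (SE 0.27, adjusted p = 0.607) and -0.54 (SE 0.27, adjusted p = 0.23), with blocked adjusted p values of 0.0189 and 0.00203. With spike-in scaling the 4-week difference was 0.06. Lpl, its target, read 2.44 and 2.87 in KKAy and 2.96 and 3.39 in C57BL/6J at 4 weeks, a difference of -0.52 (adjusted p = 0.253, and 0.00218 with the block). Lpl was lower at 11 weeks than at 4 weeks in both strains, with differences of -1.68 in KKAy (adjusted p = 0.00814) and -2.29 in C57BL/6J (adjusted p = 0.00442).

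Angptl6, a growth factor whose loss in mice is known to cause obesity, read 1.98 and 2.29 in KKAy against 2.46 and 2.66 in C57BL/6J at 4 weeks. At 11 weeks it read 2.23 and 2.51 in KKAy against 2.33 and 2.38 in C57BL/6J. Its KKAy arrays were below the C57BL/6J arrays at 4 weeks and overlapped them at 11 weeks. The 4-week difference was -0.42 (SE 0.16, adjusted p = 0.157, and 0.0119 with the block and 0.0421 with quantile normalization), and -0.43 on the second probe (adjusted p = 0.0629). The brightest probe lies on chromosome 9 at 20624284 to 20624343 and the second at 20624469 to 20625621 (mm8). In the annotation Angptl6 overlaps Shfl, as Lect2 overlaps Fbxl21 and Selenop overlaps Ccdc152. The change of the strain difference with age was 0.44 (SE 0.23, adjusted p = 0.416, and 0.0413 with the block).

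Ahsg and Fetub, the fetuin genes, and Selenop, the selenium carrier, were among the brightest members and showed no call between the strains at either age, with or without the block. Processed signals before scaling ran only from 268082 to 335823 for Ahsg and from 145114 to 164821 for Selenop over the 8 arrays. The 75th percentile meanwhile ran from 476 to 1192. Whether such bright probes still followed transcript level was not tested, which limits what a missing call means. Ahsg, which encodes an inhibitor of the insulin receptor, read 8.37 and 8.78 in KKAy against 8.14 and 8.76 in C57BL/6J at 4 weeks, and 8.83 and 9.18 in KKAy against 8.76 and 8.84 in C57BL/6J at 11 weeks. Its differences were 0.13 (95% interval -0.50 to 0.76) and 0.20 (-0.42 to 0.83). Fetub, which lies next to it on chromosome 16, read 6.41 and 6.82 in KKAy against 6.41 and 6.87 in C57BL/6J at 4 weeks, and 6.54 and 6.98 in KKAy against 6.60 and 6.86 in C57BL/6J at 11 weeks. The strains overlapped at both ages, and Fetub differed by -0.03 (-0.64 to 0.58) and 0.03 (-0.58 to 0.64). Selenop read 7.45 and 7.93 in KKAy against 7.05 and 7.94 in C57BL/6J at 4 weeks, and 7.99 and 8.42 in KKAy against 7.79 and 8.03 in C57BL/6J at 11 weeks. It differed by 0.20 (-0.63 to 1.02) and 0.29 (-0.53 to 1.12), the widest intervals of the 8 members above background on all arrays. The upper bound for Selenop at both ages lies above the difference measured for Lect2. The probes lie on chromosome 16 at 22814676 to 22814735 (Ahsg) and 22854997 to 22855056 (Fetub) and on chromosome 15 at 3230418 to 3230477 (Selenop), all on mm8.

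**Figure D4:**
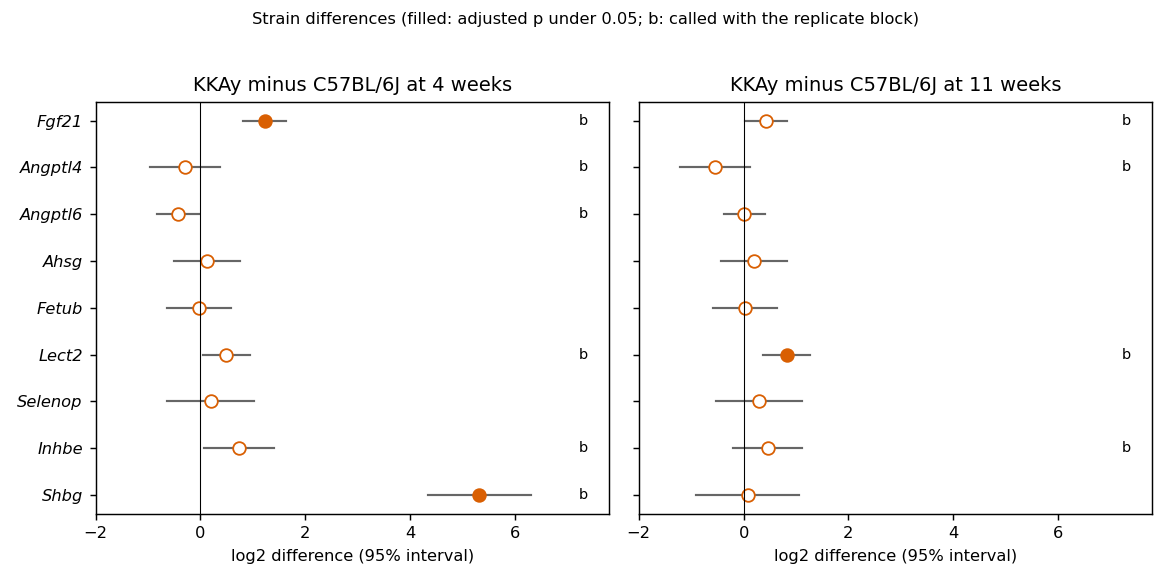
Strain differences of the 9 members (log2, KKAy minus C57BL/6J) at 4 weeks (left) and 11 weeks (right), with 95% intervals from limma. Filled points passed the adjusted threshold without the block, and the letter b marks members that passed with it. Fgf21 and Shbg are filled at 4 weeks and Lect2 at 11 weeks.

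With age, 1 of 9 members passed in KKAy, where 18.6% of all genes did (7.89% higher and 10.7% lower at 11 weeks), and 0 of 9 in C57BL/6J, where 8.38% did (1.89% higher and 6.48% lower). The member that passed was Shbg, lower at 11 weeks, whose probe was kept only through the KKAy 4-week group. With the block, 2 members were called higher and 2 lower in KKAy, when 53.4% of all genes were called (27.4% higher and 26.0% lower). In C57BL/6J it called 1 higher and 1 lower, when 33.8% of all genes were called (16.4% higher and 17.4% lower). The 11-week arrays lay entirely above the 4-week arrays for 2 members and entirely below for 2 in KKAy (25.7% and 25.9% of all genes), and for 3 and 2 in C57BL/6J (25.4% and 23.8%). Ahsg was 8.83 and 9.18 at 11 weeks against 8.37 and 8.78 at 4 weeks in KKAy, a difference of 0.43 (adjusted p = 0.313, and 0.0443 with the block). Its processed signal before scaling was 293561 and 275902 at 11 weeks against 289197 and 268082 at 4 weeks. The 75th percentile that is subtracted was 646 and 476 against 877 and 609. Selenop likewise differed by 0.51 in KKAy (adjusted p = 0.361, and 0.0451 with the block), with processed signals of 164233 and 162741 against 153117 and 148820. The part of the scaling in both differences was not tested. In C57BL/6J, Inhbe differed by 0.32 (adjusted p = 0.624, and 0.0261 with the block), with processed signals of 5833 and 6838 at 11 weeks against 8272 and 6165 at 4 weeks. Age goes with slide in all of these values. Kupffer cell markers were lower at 11 weeks for 4 of 6 in KKAy and 5 of 6 in C57BL/6J, stellate markers for 4 of 5 and 1 of 5, and endothelial markers for 2 of 5 and 0 of 5. Adipocyte markers were higher at 11 weeks for 1 of 3 tested in KKAy and 3 of 3 in C57BL/6J. Erythroid markers (2 on the array of 3, 1 of them well above background) also differed with age in KKAy, with summed relative levels of 46.5 to 53.9 at 11 weeks and 12.8 to 15.1 at 4 weeks, and the part of these markers in the age values was not tested. In C57BL/6J, 1 of the 9 members had an unadjusted limma p under 0.05, and 1 was called with quantile normalization.

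The strain difference at 11 weeks was set against that at 4 weeks as an interaction. Of the members, 1 of 9 passed, against 3.81% of all genes (2.06% positive and 1.75% negative). With the block 4 of 9 passed, 2 positive and 2 negative, against 31.0% of all genes (16.3% positive and 14.8% negative). The member that passed was Shbg (adjusted p = 0.0111), whose values in 3 of the 4 groups lay below background, so that its size on the log2 scale is no fold. It missed the threshold without C57BL/6J 11-week replicate 1 (adjusted p = 0.0588), without C57BL/6J 11-week replicate 2 (0.0733), without KKAy 4-week replicate 1 (0.0519) and with normexp correction (-1.52, adjusted p = 0.116). Lect2 differed by 0.34 (adjusted p = 0.624, and 0.0176 with the block).

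Genes known to act with the hepatokines were taken from lists of receptors, family members, targets and regulators. The counts of every list below are to be read beside the shares of all genes called. These were 6.41% higher and 9.0% lower at 4 weeks, and 9.95% higher and 11.5% lower at 11 weeks. With the block they were 21.4% higher and 22.4% lower, and 27.4% higher and 27.6% lower. Of 17 receptors and partners tested of 20, 2 were higher and 2 lower in KKAy at 4 weeks (7 and 4 with the block), and 5 were higher and 2 lower at 11 weeks (6 and 3 with the block). Their median difference was 0.13 at 4 weeks and -0.02 at 11 weeks. With spike-in scaling, 6 were higher and 0 lower at 4 weeks, and 3 and 1 at 11 weeks, when normexp gave 4 and 0. Klb, the FGF21 co-receptor, read 1.92 and 1.90 in KKAy against 2.42 and 2.43 in C57BL/6J at 4 weeks, lower by -0.52 (SE 0.09, adjusted p = 0.0145). At 11 weeks its difference was -0.01 (adjusted p = 0.957). With spike-in scaling Klb came to -0.17 at 4 weeks (adjusted p = 0.482). Among the FGF receptors, Fgfr3 was higher at both ages, by 0.95 (adjusted p = 0.00197) and 0.45 (adjusted p = 0.0195, and 0.0575 with spike-in scaling). Fgfr2 and Fgfr4 were higher at 11 weeks, by 1.19 (adjusted p = 0.00192) and 0.78 (adjusted p = 0.00449), while Fgfr1 was lower by -0.66 (adjusted p = 0.00988, and 0.195 with normexp and 0.106 with spike-in scaling). Fst, the activin antagonist follistatin, was higher by 0.70 at 4 weeks (adjusted p = 0.0126). Lrp2, a receptor for SELENOP, was lower by -1.90 at 11 weeks (adjusted p = 0.0018), was above background on only 1 of the 2 KKAy arrays and came to -0.67 with normexp (adjusted p = 0.0979). Met, the LECT2 receptor, and Insr differed by 0.30 and 0.02 at 4 weeks and by -0.02 and -0.16 at 11 weeks, none past the threshold (Met at 4 weeks had an adjusted p of 0.103, and 0.00558 with the block).

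In the angiopoietin-like family 2 of 6 genes tested of 7 were higher in KKAy at each age and 0 lower, with medians of -0.07 and 0.28 (2 and 3 with the block at 4 weeks, 3 and 1 at 11 weeks). The 4-week median was 0.03 with normexp and 0.28 with spike-in scaling, and quantile normalization called 1 gene lower at each age. Angptl8, a family member induced by insulin, read 0.59 and 0.58 in KKAy against -0.10 and -0.05 in C57BL/6J at 4 weeks, and 1.65 and 1.49 in KKAy against 0.19 and 0.08 in C57BL/6J at 11 weeks. It rose by 0.66 (SE 0.11, adjusted p = 0.0112) and 1.43 (SE 0.11, adjusted p = 0.000611). Angptl7 was higher by 1.57 at 4 weeks (adjusted p = 0.00319) and by 1.79 at 11 weeks (adjusted p = 0.00156), when the C57BL/6J arrays were not well above background. The 11-week difference rests on those C57BL/6J values, -5.35 and -5.39, so its size is uncertain and no bound is given. Lipc, hepatic lipase, was higher by 0.66 at 11 weeks (adjusted p = 0.00592).

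Of the 6 cystatin superfamily genes of plasma, 0 were called by limma at 4 weeks (0 at an unadjusted p under 0.05, 2 with the block) and 1 at 11 weeks (2 with the block), with medians of 0.08 and 0.12 (-0.03 and -0.04 with quantile normalization). Ahsg, Fetub, Hrg, Kng2 and Kng1 follow each other in the annotation, and their differences ran from -0.08 to 0.17 at 4 weeks and from -0.22 to 0.20 at 11 weeks. The call at 11 weeks was Cst3, cystatin C, higher by 0.41 (adjusted p = 0.0322), which was not called with normexp (0.0572), quantile normalization (0.374) or spike-in scaling (0.088). Of 4 activin and inhibin subunits tested of 5, 0 passed limma's test at 4 weeks (3 at an unadjusted p under 0.05, and 2 higher and 1 lower with the block). At 11 weeks 1, Inhbc, passed (2 higher and 2 lower with the block), with medians of 0.20 and 0.08. Spike-in scaling called 2 higher at 4 weeks, and quantile normalization 1 at 4 weeks and 0 at 11 weeks. Of 16 selenoprotein and selenium pathway genes, 1 was higher at 4 weeks and 3 at 11 weeks, with none lower and medians of 0.17 and 0.29 (4 higher and 1 lower, and 9 higher and 2 lower, with the block). At 4 weeks 0 were called with normexp and 2 higher with spike-in scaling, and at 11 weeks 5 higher with quantile normalization. Dio1, the thyroid hormone deiodinase, was higher by 0.50 (adjusted p = 0.0314) and 0.60 (adjusted p = 0.013), a call lost with quantile normalization at both ages (0.211 and 0.154) and with normexp at 4 weeks (0.0819). Selenow and Selenof were higher at 11 weeks by 0.66 (adjusted p = 0.0071) and 0.96 (adjusted p = 0.0215).

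**Figure D5:**
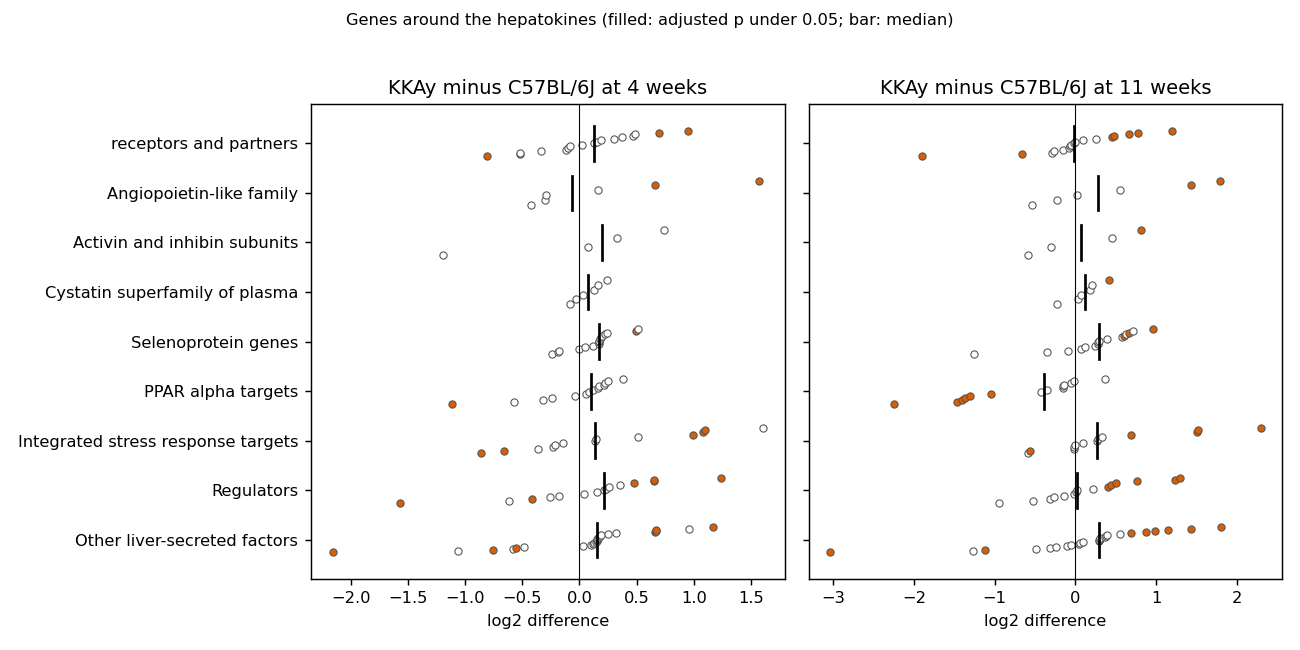
Strain differences (log2, KKAy minus C57BL/6J) at 4 weeks (left) and 11 weeks (right) of the genes tested in each list, with filled points past the adjusted threshold and black bars at list medians. PPAR alpha targets hold 6 filled points below 0 at 11 weeks and none above.

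The known inducers of Fgf21 were followed through their other targets. Of 14 PPAR alpha targets, 1 was lower in KKAy at 4 weeks and none higher, and 6 were lower and none higher at 11 weeks, with medians of 0.10 and -0.39. With the block 2 were higher and 3 lower at 4 weeks, and 8 were lower at 11 weeks. With spike-in scaling 1 was higher and 0 lower at 4 weeks, while at 11 weeks 6 or 7 were lower and 0 higher under every scaling tried. Pdk4, a kinase that restrains glucose oxidation, was lower by -1.11 at 4 weeks (adjusted p = 0.0428, and 0.0723 with spike-in scaling). Ehhadh, a peroxisomal oxidation enzyme, read 6.19 and 6.01 in KKAy against 8.36 and 8.33 in C57BL/6J at 11 weeks and was lower by -2.24 (SE 0.13, adjusted p = 0.000292). Vnn1, a pantetheinase, and Acot1, an acyl-CoA thioesterase, were lower by -1.46 (adjusted p = 0.000787) and -1.41 (adjusted p = 0.00139). At 4 weeks these last 3 genes differed by -0.24, -0.32 and 0.05, none past the threshold (Vnn1 had an adjusted p of 0.145, and 0.0109 with the block). Angptl4, itself a known PPAR alpha target, is not on the list.

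Of 13 integrated stress response targets tested of 14, 3 were higher and 2 lower in KKAy at 4 weeks, and 4 were higher and 1 lower at 11 weeks (5 and 4, and 7 and 2, with the block), with medians of 0.13 and 0.27. Over all genes 15.4% were called at 4 weeks and 21.5% at 11 weeks (43.8% and 54.9% with the block). With spike-in scaling 5 were higher and 0 lower at 4 weeks, and 4 and 0 at 11 weeks. Chac1, a glutathione-degrading enzyme induced through ATF4, read 0.24 and 0.57 in KKAy against -0.80 and -0.55 in C57BL/6J at 4 weeks and was higher by 1.08 (SE 0.19, adjusted p = 0.0154). At 11 weeks it was higher by 2.30 (adjusted p = 0.000882). Psat1, of serine synthesis, was higher by 0.99 at 4 weeks (adjusted p = 0.00524), and Atf3 by 1.51 at 11 weeks (adjusted p = 0.00094). Phgdh, also of serine synthesis, was lower by -0.86 at 4 weeks (adjusted p = 0.0442, and 0.455 with normexp and 0.147 with spike-in scaling). Cth, a cysteine-forming enzyme, was lower by -0.66 at 4 weeks (adjusted p = 0.00793, and 0.24 with spike-in scaling) and -0.56 at 11 weeks (adjusted p = 0.0114, and 0.162 with spike-in scaling). Atf4 itself differed by 0.14 and 0.33 (adjusted p = 0.486 and 0.0773, the second 0.0058 with the block).

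Among 15 transcriptional regulators of these genes, 4 were higher and 2 lower at 4 weeks and 6 higher at 11 weeks, with medians of 0.21 and 0.02 (8 and 4, and 7 and 4, with the block). With quantile normalization 4 were higher at 11 weeks and the median was -0.08. Thrb, the thyroid hormone receptor beta gene, was higher by 1.23 (adjusted p = 0.00103) and 1.29 (adjusted p = 0.000688). Nr3c1, the glucocorticoid receptor gene, was higher by 0.65 (adjusted p = 0.0207) and 0.77 (adjusted p = 0.00928). Nr1i3, the xenobiotic receptor CAR, was higher by 0.65 at 4 weeks (adjusted p = 0.00707). Srebf1, of fatty acid synthesis, was higher by 1.24 at 11 weeks (adjusted p = 0.00094). The 2 lower at 4 weeks were Ppargc1a, by -1.57 (adjusted p = 0.023), and Mlxipl, by -0.41 (adjusted p = 0.031). At 11 weeks Ppargc1a differed by -0.95 (adjusted p = 0.0873, and 0.00315 with the block), while Mlxipl was higher by 0.44 (adjusted p = 0.0199). Mlxipl lost its call at both ages under quantile normalization (0.063 and 0.114) and under spike-in scaling (0.806 and 0.0606). Ppara differed by -0.18 and -0.32 and Hnf4a by 0.04 and 0.02, none past the threshold (Ppara at 11 weeks had an adjusted p of 0.11, and 0.0121 with the block).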

How the data were processed

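Spot intensity was extracted by the authors with Agilent Feature Extraction 9.5.1.1, per the file headers and the submitters' processing notes, as processed signal with the background subtracted. The deposited table holds log2 values, with column medians from -3.96 to -3.67. On each array they were the log2 processed signal shifted by a constant (100% of probes within 0.001), by a tool that no source used here names. RNA was labelled with Cy3 and hybridised to 1-colour arrays, per the labels.

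Control spots (1639 per array) and outlier-flagged spots (59 to 89) were left out, no spot was saturated (0), and spots of a probe were averaged. Signals were taken as log2 minus the array's 75th percentile. A probe was kept (25320 in all) if any group had it well above background on both arrays, and the brightest probe stood for its gene. Names came from RefSeq's GRCm38.p6 table by accession (24367 probes), symbol (6307) or older symbol (2425), and 8075 probes kept the file's name. The fit of 4 group means over the 8 arrays used limma 3.58.1 under R 4.3.3 (residual degrees of freedom 4, prior 1.926), with Benjamini-Hochberg adjustment at 0.05. The median SD between arrays of a group was 0.126 to 0.222, and the number of arrays limits precision. Deviations of same-numbered arrays correlated in all 6 pairs of groups (r = 0.53 to 0.676), so the numbers, taken from the labels, were treated as pairing the samples in the blocked fit (3 residual degrees of freedom). The fit without the block was run on simulated data with independent arrays and scored for the strain difference at 4 weeks alone. The blocked fit was not simulated. The members, lists and tests were chosen with earlier results of these data known. All 9 members were named, with up to 3 called genes of each list by smallest adjusted p in each strain comparison, receptors or cofactors of a member, and the 3 genes most like a member whose group means ranged by at least 1. Neighbours and other genes were chosen after their values were seen. Motifs and figures used Python 3.11.15, pandas 2.3.3 and matplotlib 3.10.9. Alternatives were background correction, scaling, the source of values, filters on dim probes, the arrays fitted, the block, the prior, each array left out and the second probe.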

Additional observations from a re-analysis of the deposited data

Results flagged for a closer look

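Shbg was picked out because its strain difference changed with age by more than the spread between arrays: the interaction was -5.25 on the log2 scale (SE 0.57, limma adjusted p = 0.0111). At 4 weeks the KKAy level was 10.2-fold the detection level of the C57BL/6J arrays, and at 11 weeks both strains were below background. The KKAy 4-week arrays (-2.34 and -2.60) were the ones well above background, so the interaction has no size as a fold and rests on those 2 arrays. The probe was kept only through that group, so its p-value is no independent support. No other member met this or the other criteria for a closer look, and groups of 2 arrays could not be tested for outlying arrays.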

How the results depend on the processing

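Of the results for single genes under the alternatives, 664 kept their direction and side of the threshold, 30 gained a call, 9 lost one and 58 changed sign, all of the last kind uncalled at first. Counts of called members moved as follows. At 4 weeks 2 became 5 with quantile normalization, 4 with spike-in scaling, 1 with probes above background on all arrays (which leaves out Shbg) and 6 with the replicate block. At 11 weeks 1 became 2 with quantile normalization, 0 with no filter or with the arrays of the 2 groups alone and 4 with the block, and was 0 to 1 with an array left out. With age in KKAy 1 became 2 with normexp, quantile normalization, spike-in scaling or the trended robust prior and 4 with the block, and was 1 to 2 with an array left out. With age in C57BL/6J 0 became 1 with quantile normalization and 2 with the block. For the interaction 1 became 0 with normexp or probes above background on all arrays, 2 with quantile normalization and 4 with the block, and was 0 to 1 with an array left out. Calls that the block changed are given beside the printed differences of members and list genes. The pairing behind it came from the labels' numbers.

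Signs turned with spike-in scaling at 4 weeks for Angptl4 (0.061) and Fetub (0.32) and with age in KKAy for Fetub (-0.062) and Inhbe (-0.17), and in the interaction for Ahsg (-0.14), Fetub (-0.15) and Selenop (-0.12). They turned with quantile normalization for Ahsg at 4 weeks (-0.074); at 11 weeks for Angptl6 (-0.043), Ahsg (-0.020), Fetub (-0.11) and Shbg (-0.022); with age in KKAy for Fetub (-0.053) and Inhbe (-0.092); in C57BL/6J for Angptl4 (-0.12) and Ahsg (-0.012); and in the interaction for Fetub (-0.064) and Selenop (-0.030). With normexp, Angptl6 (-0.019) and Fetub (-0.014) turned at 11 weeks. With an array left out, ranges crossed 0 at 4 weeks for Ahsg (-0.18 to 0.44), Fetub (-0.26 to 0.20) and Selenop (-0.25 to 0.64), and at 11 weeks for Angptl6 (-0.12 to 0.15), Fetub (-0.19 to 0.25) and Shbg (-0.23 to 0.38). With age in KKAy they did for Angptl4 (-0.42 to 0.087), Fetub (-0.071 to 0.36), Lect2 (-0.26 to 0.026) and Inhbe (-0.24 to 0.31), and in C57BL/6J for Angptl4 (-0.12 to 0.29), Fetub (-0.15 to 0.32) and Selenop (-0.026 to 0.86). In the interaction they did for Angptl4 (-0.50 to 0.0021), Ahsg (-0.23 to 0.39), Fetub (-0.17 to 0.29) and Selenop (-0.34 to 0.54). The cause of these turns was not tested.

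Over all genes, calls in the order 4 weeks, 11 weeks, age in KKAy, age in C57BL/6J and interaction were 2626, 3660, 3176, 1428 and 650. They were 7473, 9368, 9100, 5770 and 5288 with the block, 1505, 2126, 1463, 700 and 142 with no filter, and 1405, 2121, 742 and 1129 with the 2 groups alone (no interaction). With quantile normalization they were 2872, 3920, 3374, 1514 and 851, and with spike-in scaling 3088, 2975, 2895, 1184 and 416. With 1 array left out they were 1317 to 2587, 1474 to 3071, 1337 to 2397, 461 to 1330 and 62 to 295. Falls by over 1.5 times came without any 4-week array at 4 weeks, and at 11 weeks without either C57BL/6J 11-week array (1474 and 1518) or KKAy replicate 2 (2418). With age in KKAy they came without any KKAy or C57BL/6J 11-week array, with age in C57BL/6J without any C57BL/6J array, and in the interaction without any array. With normexp 2342 were called at 11 weeks, 1876 with age in KKAy, 661 with age in C57BL/6J and 324 in the interaction. With spike-in scaling the calls were 561 higher and 2334 lower with age in KKAy (1346 and 1830 otherwise) and 150 higher and 266 lower in the interaction (351 and 299 otherwise). A fit that leaves an array out assumes that the lone array varies like the other groups.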

Other observations

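Of 25 other proteins that the liver secretes, 3 were higher and 3 lower in KKAy at 4 weeks, and 6 were higher and 2 lower at 11 weeks, with medians of 0.16 and 0.29 (5 and 6, and 12 and 6, with the replicate block). The shares over all genes were 6.41% higher and 9.0% lower at 4 weeks, and 9.95% and 11.5% at 11 weeks (43.8% and 54.9% in either direction with the block). At 4 weeks quantile normalization called 5 higher and 6 lower, and spike-in scaling 5 and 1. Igfbp2, which binds insulin-like growth factors, read 4.48 and 4.37 in KKAy against 7.49 and 7.43 in C57BL/6J at 11 weeks. It was lower by -3.03 (SE 0.10, limma adjusted p = 6.13e-05), and at 4 weeks by -0.75 (adjusted p = 0.00511, and 0.139 with spike-in scaling). Gdf15, a stress-induced hormone that lowers food intake, read 2.33 and 2.41 in KKAy against 0.56 and 0.59 in C57BL/6J at 11 weeks and was higher by 1.80 (SE 0.10, adjusted p = 0.000251). At 4 weeks it read -0.51 and -0.39 in KKAy against 0.13 and 0.08 in C57BL/6J, lower by -0.56 (adjusted p = 0.016, and 0.426 with spike-in scaling). Its strain difference changed with age by 2.35 (adjusted p = 0.00234). Tsku, which encodes the secreted protein tsukushi, read 0.92 and 1.12 in KKAy against -0.23 and -0.08 in C57BL/6J at 4 weeks and was higher by 1.17 (adjusted p = 0.00244). Its difference at 11 weeks was 0.09 (adjusted p = 0.667). Orm1, an acute phase carrier protein, was higher at both ages, by 0.67 (adjusted p = 0.00718) and 0.99 (adjusted p = 0.00149).

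Markers of adipocytes had summed relative levels of 0.634 to 0.817 in KKAy and 0.995 to 1.18 in C57BL/6J at 11 weeks, and of 0.082 to 0.102 in KKAy and 0.062 to 0.075 in C57BL/6J at 4 weeks. Markers of pancreatic acinar cells lay between 0.150 and 0.250 on all arrays, with at most 2 of 5 well above background in a group.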
